A study of Mus musculus with 6 samples.

Results

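The 66 genes described here encode the glutathione, thioredoxin and superoxide defence of the mouse heart. The rule takes them by name alone, with no measured value, from the 49315 genes counted: the superoxide dismutases Sod1 to Sod3, catalase, the glutathione peroxidases (Gpx), the peroxiredoxins (Prdx) with sulfiredoxin, every gene whose symbol starts with Txn, the 4 genes of glutathione synthesis and recycling, the quinone reductase Nqo1, and the glutathione transferases (Gst) of classes alpha, mu, pi, theta, kappa, omega and zeta. Symbols marked as pseudogenes were left out. RNA came from the middle part of the ventricles of adult mice, all of which had received Angiotensin II, a vasoconstrictor peptide, at 1.0 mg/kg/day from minipumps under the skin for 28 days. The 3 libraries labelled WT came from wild-type mice and the 3 labelled TET2KO from mice with a knockout of TET2, a DNA demethylase, restricted to endothelial cells. Samples without Angiotensin II were not analysed here, so every comparison is between genotypes under the same infusion. Each library is described as a biological replicate, and all 6 carry the same batch label. The sources used here do not give the Cre driver, the deleted exons, or the age in weeks, sex and strain of the mice.

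Superoxide, which leaks from mitochondrial respiration and is made by NADPH oxidases that Angiotensin II activates, is turned into hydrogen peroxide by superoxide dismutases. Hydrogen peroxide and lipid peroxides are then removed by catalase, by glutathione peroxidases at the expense of glutathione, and by peroxiredoxins at the expense of thioredoxin. Glutathione reductase and the thioredoxin reductases restore glutathione and thioredoxin with electrons from NADPH, and glutathione transferases couple glutathione to reactive aldehydes and foreign compounds. Many of these genes are targets of the transcription factor NRF2. The heart is rich in mitochondria and depends on this system throughout life.

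Levels are given as CPM (reads as a share of the TMM-scaled library) or, between genes, as the authors' TPM, which divides by gene length. Each log2 fold change compares TET2KO with WT, a positive value being higher in TET2KO, and has its SE and an adjusted p over all tested genes from the quasi-likelihood test of edgeR. The libraries held 22124844 to 30418909 reads. Tet2 went against the labels: the libraries labelled TET2KO held 14.6, 8.01 and 10.4 CPM and those labelled WT 4.27, 4.33 and 3.08 CPM (log2 fold change 1.49 ± 0.29, adjusted p = 0.00652). With the length trend described next removed, its value was 0.27 ± 0.17 (adjusted p = 0.214) and the groups overlapped. WT and TET2KO stand for the libraries so labelled, and all directions are those of the labels. The knockout is restricted to endothelial cells and the RNA is of ventricular tissue, so Tet2 reads of other cells are counted too and the deletion may not show. Why Tet2 stood higher as counted was not tested. Whether the labels were exchanged was not tested, and an exchange would turn every direction given here. Across all tested genes the fold change followed transcript length, longer transcripts standing higher in TET2KO (Spearman rho 0.61 over 14341 genes, described without a test since genes are not independent). A second value is therefore given throughout, called length-adjusted, for which a smooth trend on transcript length and GC content was removed from each library. Real differences that follow length are removed with it. "Rose" and "fell" are used for genes past an adjusted p of 0.05 in the same direction in both fits.

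More of these genes were lower than higher in the TET2KO libraries. Of the 66 genes 55 had enough reads to be tested, and 6 of them (10.9%) were higher and 31 (56.4%) lower as counted. Among all 14370 tested genes 62.9% differed, 33.4% higher and 29.4% lower. After length adjustment 10 (18.2%) were higher and 15 (27.3%) lower, against 21.9% and 24.3% of all tested genes (46.2% in either direction), so the lower share was then close to the background. The median log2 fold change was -0.74 as counted and -0.12 length-adjusted, where all tested genes had medians of 0.05 and -0.03. In both fits 5 genes rose (9.09%, all genes 16.4%) and 13 fell (23.6%, all genes 16.3%), and Sod1 and Gstk1 passed in opposite directions. The CPM of the groups did not overlap for 47 of the 55 (85.5%), against 73.5% of all tested genes. With libraries scaled by their totals instead, which moved the median of all genes to 0.47, 13 were higher and 21 lower. On the authors' TPM, where that median was 0.41, 16 were higher and 16 lower.

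**Figure D1:**
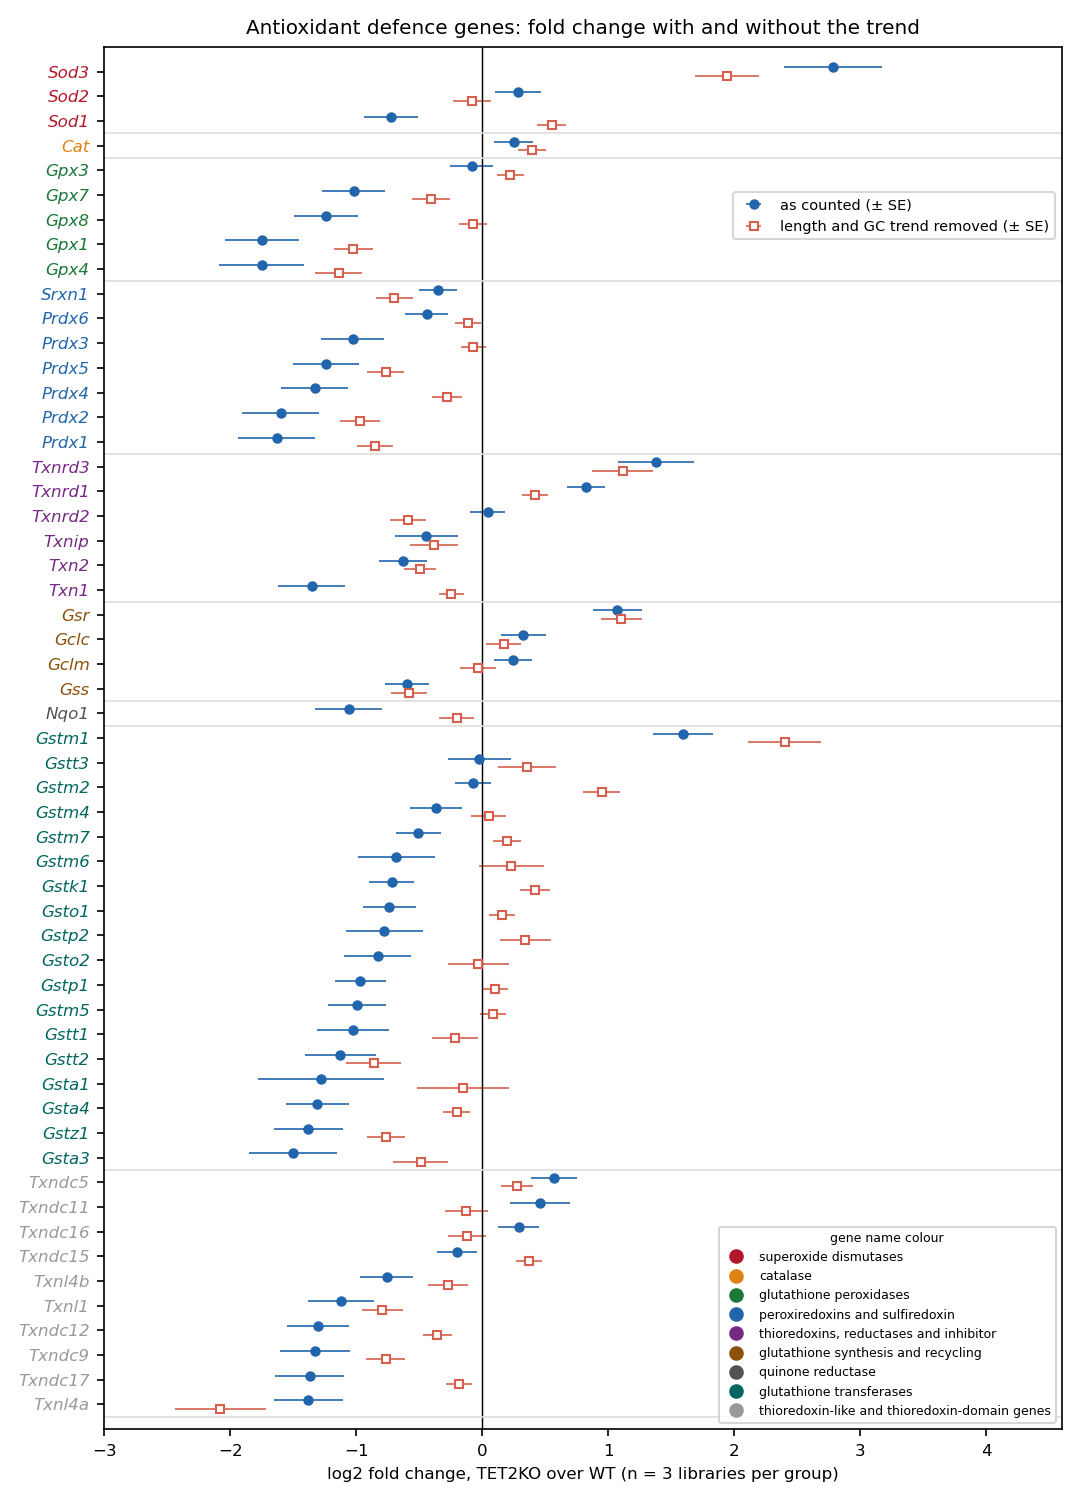
Log2 fold change of TET2KO over WT for the 55 tested genes (horizontal axis, with SE), ordered by role on the vertical axis and coloured by role. Filled circles are values as counted and open squares are values with the length and GC trend removed. Most circles lie left of 0, and the squares lie nearer to 0 for most of the short transferase and thioredoxin genes.

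A total of 13 genes passed in the same direction in 25 of 25 fits, which were both fits named above and every change of scaling, filter, test, length definition, replicate block or left-out library. Sod3, Gsr, Txnrd3 and Gstm1 were higher in all of them (4 of 55, 7.27%, against 7.36% of all tested genes). Gpx1, Gpx4, Prdx1, Prdx2, Prdx5, Gstz1, Txnl1, Txndc9 and Txnl4a were lower in all of them (9 of 55, 16.4%, against 5.24%).

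**Figure D2:**
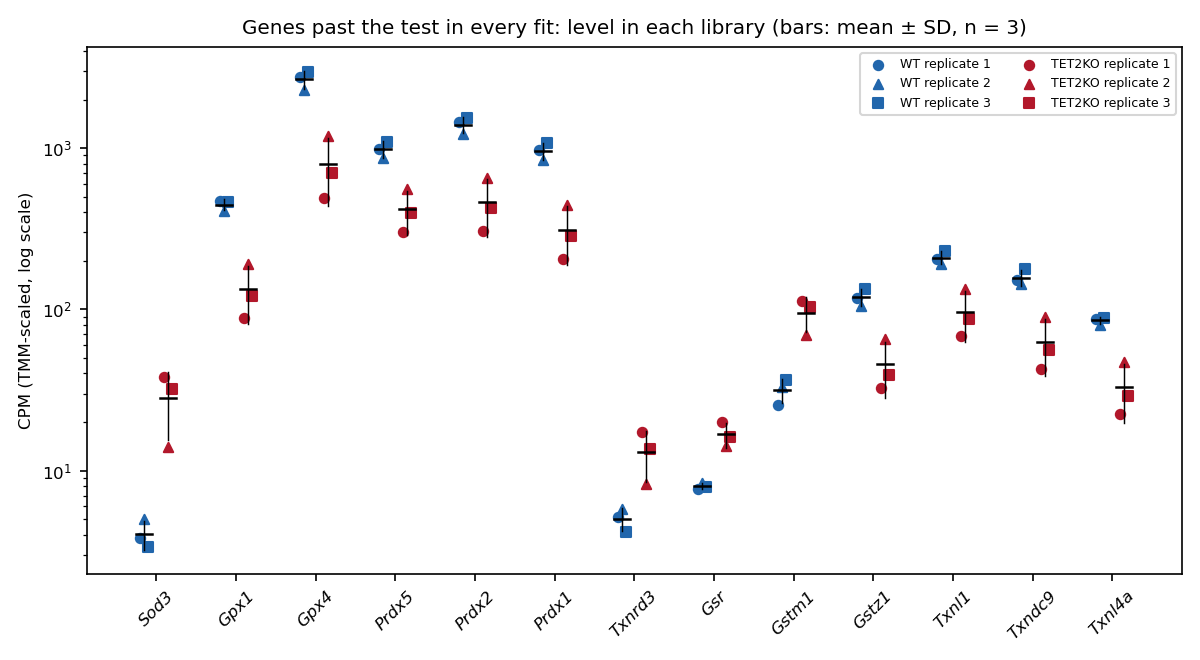
CPM of the 13 genes in each of the 6 libraries (vertical log axis), with blue for WT, red for TET2KO, a marker shape for each replicate number, and black bars for mean ± SD (n = 3). The groups do not overlap for any of the 13 genes, and TET2KO replicate 2 (red triangle) is the TET2KO library nearest to WT for each.

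Of the 3 superoxide dismutases, Sod3 rose, Sod1 passed in opposite directions and Sod2 passed in neither fit. Sod3 (chr5:52363791-52371418, GRCm38), the secreted form that binds the extracellular matrix, held 3.84, 4.99 and 3.36 CPM in WT replicates 1 to 3 and 38.1, 13.9 and 32.1 CPM in TET2KO replicates 1 to 3. The lowest TET2KO library, replicate 2, still stood above the highest WT library. Sod3 rose 6.88-fold as counted (log2 fold change 2.78 ± 0.39, adjusted p = 0.00652), and its length-adjusted value was 1.94 ± 0.25 (adjusted p = 0.00397).

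Sod1 (chr16:90220754-90226329), the copper and zinc enzyme of the cytosol, is the member whose result depends most on the gene length used. Its level was 398, 369 and 444 CPM in the WT libraries and 191, 294 and 249 CPM in the TET2KO ones. As counted it was lower in TET2KO (-0.72 ± 0.21, adjusted p = 0.0202), a call lost without any one of WT replicates 1 and 3 and TET2KO replicate 3 (log2 fold changes of -0.74 to -0.66). Its longest protein-coding transcript has 641 nt, and with that length removed it was higher (0.55 ± 0.12, adjusted p = 0.00643). The merged exons of all its annotated transcripts span 3970 nt, and with that length it was lower again (-1.08, adjusted p = 0.00712). In WT replicate 1 Sod1 had 8284 reads at 956 TPM, and catalase, with 2613 nt by both lengths, 3254 reads at 92.8 TPM. The length behind the authors' TPM of Sod1 was thus near 641 nt and not 3970 nt. Total-library scaling ended its call (-0.72 became -0.30) and the authors' TPM gave -0.10, so no direction is given for Sod1.

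Sod2 (chr17:13006846-13040063), the manganese enzyme of the mitochondrial matrix, held 402, 459 and 498 CPM in the WT libraries and 516, 537 and 600.1 CPM in the TET2KO ones. Every TET2KO library was above every WT library, by little. It did not pass as counted (0.28 ± 0.18, adjusted p = 0.209) or length-adjusted (-0.084 ± 0.15, adjusted p = 0.671), but it passed with total-library scaling (0.71) and on TPM (0.92). On the authors' TPM Sod2 averaged 186 in WT against 979 for Sod1 and 1.73 for Sod3, so Sod3 was the least abundant of the 3 in this tissue.

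Catalase, which breaks down hydrogen peroxide in peroxisomes, held 156, 158 and 170.4 CPM in the WT libraries and 187, 187 and 203 CPM in the TET2KO ones. The groups did not overlap, but the difference did not pass as counted (0.25 ± 0.16, adjusted p = 0.190). It passed length-adjusted (0.40 ± 0.11, adjusted p = 0.0181). That call was lost without any one of WT replicates 1, 2 and 3 and TET2KO replicate 3 (log2 fold changes of 0.35 to 0.43). It was also lost with the length of the shortest principal transcript (0.23, adjusted p = 0.120), and total-library scaling gave 0.68 with an adjusted p of 0.00598.

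Of the 5 tested glutathione peroxidases 4 were lower as counted and 0 higher (all tested genes 29.4% and 33.4%), with a median log2 fold change of -1.24. Length-adjusted, 2 were lower (all tested genes 24.3%). The median transcript of this role had 1072 nt, and 1751 of all 2563 tested genes under 1500 nt were lower as counted. The peroxidases kept their direction with total-library scaling (3 lower and 0 higher) and on TPM (3 lower, 1 higher). Gpx1, Gpx3 and Gpx4, like the 3 thioredoxin reductases, carry selenocysteine, which is read from a TGA codon that would otherwise end the protein. The codon is shown because it sets these enzymes apart from Gpx7 and Gpx8, which use cysteine, and because 2 of its tested carriers rose and 2 fell. The coding sequence around it is printed from GENCODE M21 transcripts (GRCm38), with the selenocysteine codon in capitals. For each gene the longest transcript annotated with the codon was used, so codon numbers in other transcripts may differ.
Gpx1: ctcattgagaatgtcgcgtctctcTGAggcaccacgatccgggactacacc
Gpx3: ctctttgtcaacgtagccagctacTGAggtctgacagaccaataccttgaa
Gpx4: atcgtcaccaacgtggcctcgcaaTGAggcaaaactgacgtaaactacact
Txnrd1: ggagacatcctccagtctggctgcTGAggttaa
Txnrd2: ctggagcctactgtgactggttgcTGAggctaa
Txnrd3: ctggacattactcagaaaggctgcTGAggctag
In the peroxidases the codon lies within the protein: codon 47 of 201 in Gpx1 (chr9:108339451-108339453), codon 73 of 226 in Gpx3 (chr11:54907256-54907258) and codon 129 of 253 in Gpx4 (chr10:80054737-80054739). In the reductases it is the codon before the last: codon 612 of 613 in Txnrd1 (chr10:82896037-82896039), codon 526 of 527 in Txnrd2 (chr16:18477772-18477774) and codon 614 of 615 in Txnrd3 (chr6:89674789-89674791). Of the 6 tested genes with the codon, Gpx1 and Gpx4 fell, Txnrd1 and Txnrd3 rose, Txnrd2 was lower length-adjusted only, and Gpx3 passed in neither fit.

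Gpx4 (chr10:80047166-80056439), the enzyme that reduces lipid peroxides inside membranes and so guards against ferroptosis, was the most abundant of these 55 genes in WT on the authors' TPM (2422, against 1096 in TET2KO). It held 2740.2, 2301 and 2966 CPM in the WT libraries and 493, 1186 and 699 CPM in the TET2KO ones, so even TET2KO replicate 2 stood well below the lowest WT library. Gpx4 fell 3.37-fold as counted (-1.75 ± 0.34, adjusted p = 0.00652), with a length-adjusted value of -1.14 ± 0.19 (adjusted p = 0.00404). Of its possible 150-base reads 36.9% also match the processed copy Gpx4-ps2, and how the authors counted such reads is not given.

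Gpx1 (chr9:108338903-108340343), the main cytosolic peroxidase for hydrogen peroxide, held 469.6, 407 and 463 CPM in the WT libraries and 88.2, 191 and 120.4 CPM in the TET2KO ones. It fell 3.36-fold (-1.75 ± 0.29, adjusted p = 0.00652), with a length-adjusted value of -1.02 ± 0.15 (adjusted p = 0.00397). Gpx3, the secreted plasma form, passed in neither fit: it held 155, 171 and 192 CPM in the WT libraries and 148, 177 and 163 CPM in the TET2KO ones, the groups overlapped, and its log2 fold change was -0.084 ± 0.17 (adjusted p = 0.684), although on TPM it was 0.55.

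Gpx7 and Gpx8 sit in the endoplasmic reticulum and use peroxide in protein folding. Gpx7 averaged 16.7 ± 1.78 CPM in WT and 8.21 ± 2.59 CPM in TET2KO (SD, n = 3), and Gpx8 67.4 ± 2.68 and 28.6 ± 10.3 CPM. Both were lower as counted (-1.02 ± 0.25 and -1.24 ± 0.25, adjusted p = 0.0107 and 0.00664). Neither passed length-adjusted (-0.41 and -0.077). Gpx7 did pass length-adjusted with the shortest principal transcript (-0.55, adjusted p = 0.0262) and without TET2KO replicate 2 (-0.56, adjusted p = 0.00271). The as-counted call of Gpx7 was lost without TET2KO replicate 3 (log2 fold change -0.89).

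The 6 tested peroxiredoxins were all lower in value, 5 of them past the test as counted (all tested genes 29.4% lower), and Srxn1 was lower in value too. Length-adjusted, Prdx1, Prdx2, Prdx5 and Srxn1 passed (all tested genes 24.3% lower). The role kept its direction with total-library scaling (5 lower, 0 higher) and on TPM (4 lower, 0 higher). Prdx1 (chr4:116685544-116700822), a cytosolic peroxidase, held 971, 845 and 1078 CPM in the WT libraries and 205, 446 and 285 CPM in the TET2KO ones. Prdx2 (chr8:84969587-84974834), its close relative, held 1444, 1215 and 1530.2 CPM in the WT libraries and 304, 655 and 422 CPM in the TET2KO ones. The groups were well apart for both, by more than the WT spread. They fell 3.09-fold and 3.03-fold (-1.63 ± 0.31 and -1.60 ± 0.30, both adjusted p = 0.00652), with length-adjusted values of -0.85 ± 0.14 and -0.97 ± 0.16.

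Prdx5 (chr19:6906697-6910106), found in mitochondria, peroxisomes and cytosol, held 992, 866 and 1097 CPM in the WT libraries and 302, 553 and 396 CPM in the TET2KO ones. It fell 2.36-fold (-1.24 ± 0.26, adjusted p = 0.00697; length-adjusted -0.77 ± 0.15, adjusted p = 0.00502). Its exons overlap those of Trmt112 on the other strand and those of Prdx2 overlap Junb and Rnaseh2a, and since the strand setting of the counting is not given, reads there cannot be assigned. Prdx3, the mitochondrial matrix peroxiredoxin, was lower as counted (-1.03 ± 0.25, adjusted p = 0.0100) and near 0 length-adjusted (-0.070 ± 0.10, adjusted p = 0.585). Whether Prdx3 and Prdx5 differ from each other was not tested. The as-counted call of Prdx3 was lost without TET2KO replicate 3 (log2 fold change -0.95).

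Prdx4, which supports disulfide formation in the endoplasmic reticulum, was lower as counted (-1.33 ± 0.26, adjusted p = 0.00652) and not past length-adjusted (-0.28 ± 0.12, adjusted p = 0.0841), although it passed with merged exon length (-0.76) and with the shortest principal transcript (-0.41). Prdx6, which works with glutathione rather than thioredoxin, held 223, 226 and 243 CPM in the WT libraries and 153, 195 and 162 CPM in the TET2KO ones. These groups did not overlap, but neither value passed (-0.44, adjusted p = 0.0538; length-adjusted -0.11), except length-adjusted with merged exons (-0.54, adjusted p = 0.0168). Sulfiredoxin (Srxn1), which repairs over-oxidised peroxiredoxins, held 30.7 ± 2.33 CPM on average in WT and 24.05 ± 2.13 CPM in TET2KO (SD, n = 3). Its value did not pass as counted (-0.35 ± 0.15, adjusted p = 0.0736), passed length-adjusted (-0.70 ± 0.15, adjusted p = 0.00640) and did not pass with merged exon length (-0.27).

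Erythroid transcripts, which reach heart RNA with blood, were also lower in TET2KO, and red cells are rich in Prdx2, Gpx1 and catalase. Summed over 12 matched erythroid markers they came to 7350, 3542 and 1828 CPM in WT replicates 1 to 3 and 328, 966 and 403 CPM in the TET2KO replicates. Of the 9 tested markers 8 were lower and 1, Slc25a37, higher in both fits. The part of blood in the results for these genes was not tested. In whole tissue, fewer cells of a type and less RNA per cell cannot be told apart.

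Of the thioredoxins and their reductases, Txnrd1 and Txnrd3 rose, Txn2 fell, and Txnrd2 and Txn1 each passed in 1 fit only. Txnrd1 (chr10:82833951-82897712), the cytosolic reductase, held 32.5, 35.5 and 35.4 CPM in the WT libraries and 66.9, 55.4 and 60.9 CPM in the TET2KO ones. Txnrd3 (chr6:89643988-89675529), which can reduce glutathione as well and is best known from testis, held 5.14, 5.76 and 4.14 CPM in the WT libraries and 17.3, 8.31 and 13.6 CPM in the TET2KO ones. The groups did not overlap for either. Txnrd1 rose 1.77-fold (0.83 ± 0.15, adjusted p = 0.00652; length-adjusted 0.42 ± 0.10, adjusted p = 0.0118). Txnrd3 rose 2.60-fold (1.38 ± 0.30, adjusted p = 0.00750; length-adjusted 1.12 ± 0.24, adjusted p = 0.00723). The adjusted call of Txnrd1 was lost with merged exon length (0.087) and without any one of WT replicates 1 and 2 (log2 fold changes of 0.37 to 0.41).

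Txnrd2, the mitochondrial reductase, held 28.3, 26.9 and 30.0 CPM in the WT libraries and 29.5, 28.6 and 29.8 CPM in the TET2KO ones, which overlap. Its as-counted value was 0.044 ± 0.14 (adjusted p = 0.795). Length-adjusted it was lower (-0.59 ± 0.14, adjusted p = 0.0102), but -0.014 with the shortest principal transcript, 0.48 with total-library scaling and 0.63 on TPM, so no direction is given for it.

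Thioredoxin itself was lower as counted. Txn1, the cytosolic and nuclear protein, held 219, 190.5 and 223 CPM in the WT libraries and 59.1, 116 and 72.4 CPM in the TET2KO ones (-1.35 ± 0.27, adjusted p = 0.00652). Length-adjusted the value of Txn1 was -0.25 ± 0.10 (adjusted p = 0.0755), not past the test, but with the shortest principal transcript it was -0.37 (adjusted p = 0.0246) and without TET2KO replicate 2 it was -0.33 (adjusted p = 0.0116), both past. Mitochondrial Txn2 held 324, 312 and 363 CPM in the WT libraries and 178, 248 and 220.1 CPM in the TET2KO ones and fell (-0.63 ± 0.19, adjusted p = 0.0231; length-adjusted -0.50 ± 0.13, adjusted p = 0.0132). On TPM Txn2 averaged 124.1 in WT and 124.2 in TET2KO, so its fall depends on the scale used. Txn2 also has the weaker of these calls, which 8 of 15 alternatives to the as-counted fit ended. As counted it was lost without any one of WT replicates 1, 2 and 3 and TET2KO replicate 3 (log2 fold changes of -0.68 to -0.57), length-adjusted it was lost without any one of WT replicates 1 and 3 and TET2KO replicate 3 (log2 fold changes of -0.52 to -0.45), and with the shortest principal transcript the value was -0.056.

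Txnip, the inhibitor that binds thioredoxin and also restrains glucose uptake, was the most abundant gene of the thioredoxin system on TPM (403 in WT). It held 817, 748 and 838 CPM in the WT libraries and 415, 604 and 749 CPM in the TET2KO ones. The TET2KO libraries were spread widely, and replicate 3 lay within the WT range. Txnip passed in neither fit (-0.44, adjusted p = 0.148; length-adjusted -0.38). The median log2 fold change of the 6 genes of this role was -0.20, and 0.23 with total-library scaling and 0.39 on TPM, so no direction is given for the role.

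Glutathione synthesis and recycling were uneven. Glutathione reductase (Gsr, chr8:33652523-33698163), which returns oxidised glutathione to its reduced form, held 7.73, 8.38 and 7.90 CPM in the WT libraries and 20.05, 14.2 and 16.3 CPM in the TET2KO ones. It rose 2.10-fold (1.07 ± 0.20, adjusted p = 0.00652), with a length-adjusted value of 1.10 ± 0.17 (adjusted p = 0.00397). The 3 WT libraries lay close together and every TET2KO library was above them. Glutathione synthetase (Gss), the last step of synthesis, went the other way: it held 24.4, 22.4 and 27.3 CPM in the WT libraries and 14.0, 18.4 and 16.5 CPM in the TET2KO ones and fell (-0.60 ± 0.17, adjusted p = 0.0184; length-adjusted -0.58 ± 0.14, adjusted p = 0.0110). The as-counted call of Gss was lost without any one of WT replicates 1 and 3 and TET2KO replicates 1 and 3 (log2 fold changes of -0.62 to -0.46) and with total-library scaling (-0.17), and the adjusted one without WT replicate 3 (log2 fold change -0.53). On TPM, Gss was 0.029. Its exons overlap Acss2 on the other strand.

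Glutamate-cysteine ligase, the rate-limiting enzyme of glutathione synthesis, did not pass. Its catalytic subunit Gclc held 9.46, 10.1 and 10.5 CPM in the WT libraries and 12.6, 11.4 and 13.6 CPM in the TET2KO ones (0.33 ± 0.18, adjusted p = 0.134), and its modifier subunit Gclm 18.5, 17 and 19.0 CPM and 19.8, 21.9 and 22.8 CPM (0.24 ± 0.15, adjusted p = 0.189). The groups did not overlap for either gene. The length-adjusted values were 0.17 ± 0.14 and -0.037 ± 0.14, and neither passed. With the shortest principal transcript, however, the value of Gclm was 1.36 (adjusted p = 0.00423), and with total-library scaling both passed (0.76 and 0.67). Without TET2KO replicate 2 the as-counted value of Gclc was 0.41 and passed.

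Nqo1, which reduces quinones without forming radicals and is a standard NRF2 target, held 139.9, 134 and 190.2 CPM in the WT libraries and 54.8, 101 and 67.4 CPM in the TET2KO ones. It was lower as counted (-1.06 ± 0.26, adjusted p = 0.0111), a call lost without WT replicate 3 (log2 fold change -0.89). Length-adjusted the value was -0.20 ± 0.14 (adjusted p = 0.244).

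NRF2 binds the antioxidant response element, and the core TGACNNNGC was searched on both strands from 250 bases before to 50 after the starts given by RefSeq for GRCm38.p6. Starts were found for 56 of the 66 genes, and 11 of these (19.6%) hold the core, against 14.0% of all 27025 genes with a start. Counted by start, 11 of 73 (15.1%) hold the core, against 12.4% of all 32851 starts. The stretches around it in Txnrd1, Prdx1, Gclm and Sod1 are shown because these genes include one that rose, one that fell, one that passed in neither fit and one with opposite calls. The core is in capitals, read 5′ to 3′ on the strand of the gene, where GCNNNGTCA is the core on the other strand.
Txnrd1: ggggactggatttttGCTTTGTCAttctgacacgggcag
Prdx1: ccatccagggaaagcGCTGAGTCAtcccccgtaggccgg
Gclm: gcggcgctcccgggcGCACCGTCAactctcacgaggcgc
Sod1: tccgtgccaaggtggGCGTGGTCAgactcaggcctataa
The core begins 92 bases before a RefSeq start of Txnrd1 (chr10:82859099-82859137, + strand) that lies inside the annotated gene, whose first base is chr10:82833951. In Prdx1 it begins 133 bases before the start (chr4:116685451-116685489, + strand). It begins 134 bases before the start of Gclm (chr3:122245408-122245446, + strand) and 56 before that of Sod1 (chr16:90220691-90220729, + strand). The other genes with the core were Gsta3, Gstm5 and Gstm7 (lower as counted only), Txndc5 (higher as counted only), Srxn1 (lower length-adjusted only), Txndc11 (past in neither fit) and Txndc2 (untested). Genes with the core therefore stood on both sides of the comparison.

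The 18 tested glutathione transferases had 1 higher and 11 lower as counted (all tested genes 33.4% and 29.4%). Length-adjusted, 3 were higher and 2 lower (all tested genes 21.9% and 24.3%). Their medians were -0.80 as counted and 0.095 length-adjusted. Their transcripts were short, with a median of 1180.5 nt, and their median fold change crossed 0 on adjustment. Most short genes were lower as counted: among all 2563 tested genes under 1500 nt 1751 were lower and 98 higher (683 and 391 length-adjusted). Gstm1 (chr3:108012255-108017973), a mu-class enzyme for lipid peroxidation products, was the only transferase higher as counted, and length-adjusted it was higher along with Gstm2 and Gstk1. It held 25.6, 32.7 and 36.4 CPM in the WT libraries and 113, 68.9 and 104 CPM in the TET2KO ones, and no TET2KO library came near the WT range. Gstm1 rose 3.02-fold (1.59 ± 0.24, adjusted p = 0.00652; length-adjusted 2.40 ± 0.29, adjusted p = 0.00397).

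The 6 tested mu-class genes lie in a cluster on chromosome 3, from Gstm5 at chr3:107895821-107898686 to Gstm4 at chr3:108040408-108044894, and differed among themselves. The untested Gstm3 lies between Gstm6 and Gstm2. Gstm2, next to Gstm1, held 56.1, 54.5 and 59.0 CPM in the WT libraries and 51.5, 58.6 and 51.0 CPM in the TET2KO ones. Its groups overlapped as counted (-0.074 ± 0.14, adjusted p = 0.670), but length-adjusted it was higher (0.95 ± 0.15, adjusted p = 0.00397), also with merged exons (0.70) and the principal transcript (0.79). On TPM it was 0.55. Gstm5 was lower as counted (-0.99 ± 0.23, adjusted p = 0.00908) and 0.087 ± 0.10 length-adjusted. Gstm7 had a call that every left-out library but TET2KO replicate 2 ended (-0.51 ± 0.18, adjusted p = 0.0412; -0.60 to -0.36 without 1 of those libraries), and 0.20 ± 0.11 length-adjusted. Gstm4 and Gstm6 passed in neither fit (-0.37 and -0.68). No 150-base read from the longest transcript of these 6 genes matches an annotated transcript of another gene.

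Gstz1 (chr12:87147165-87164723), the zeta-class isomerase of tyrosine breakdown, held 118, 105 and 134 CPM in the WT libraries and 32.3, 65.4 and 39.4 CPM in the TET2KO ones. It fell 2.60-fold (-1.38 ± 0.28, adjusted p = 0.00653; length-adjusted -0.76 ± 0.15, adjusted p = 0.00555), and its exons overlap those of Pomt2 on the other strand. Theta-class Gstt2 fell as well (-1.13 ± 0.29, adjusted p = 0.0117; length-adjusted -0.86 ± 0.22, adjusted p = 0.0126). Its adjusted call was lost without any one of WT replicates 1 and 3 (log2 fold changes of -0.81 to -0.80) and with the principal transcript (-0.45), and on TPM its value was -0.49 and not past. Gstt1 was lower as counted only (-1.02 ± 0.29, adjusted p = 0.0164; length-adjusted -0.22 ± 0.18), a call lost without any one of WT replicate 1 and TET2KO replicate 3 (log2 fold changes of -0.87 to -0.85), and Gstt3 passed in neither (-0.022 and 0.35).

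Gstk1, the kappa-class enzyme of mitochondria and peroxisomes, passed in opposite directions. It held 91.5, 82.5 and 96.1 CPM in the WT libraries and 46.4, 65.2 and 52.6 CPM in the TET2KO ones (-0.72 ± 0.18, adjusted p = 0.0107), and was higher length-adjusted (0.42 ± 0.12, adjusted p = 0.0194). The first call was lost without any one of WT replicate 3 and TET2KO replicate 3 (log2 fold changes of -0.68 to -0.65) and the second without any one of WT replicates 1, 2 and 3 and TET2KO replicates 1 and 3 (log2 fold changes of 0.33 to 0.40), so no direction is given. The alpha-class genes for aldehydes such as hydroxynonenal were lower as counted and not past length-adjusted: Gsta4 held 199, 163 and 213 CPM in the WT libraries and 58.3, 105 and 69.0 CPM in the TET2KO ones (-1.31 ± 0.25, adjusted p = 0.00652; length-adjusted -0.20 ± 0.11), and Gsta3 averaged 13.2 and 4.68 CPM (-1.50 ± 0.35; length-adjusted -0.49 ± 0.22). With merged exons Gsta3 passed (-1.12, adjusted p = 0.00881), as it did without WT replicate 3 (-0.69) or TET2KO replicate 2 (-0.67), and Gsta4 passed with the shortest principal transcript (-0.33, adjusted p = 0.0397). Gsta1 averaged 1.12 and 0.468 CPM and passed in neither fit (-1.28), and 73.7% of its 150-base reads match other genes.

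Gstp1, the pi-class enzyme and on TPM the most abundant transferase (374 in WT), was lower as counted (-0.97 ± 0.21, adjusted p = 0.00703) and 0.10 ± 0.10 length-adjusted, but lower with merged exon length (-0.38, adjusted p = 0.0380). It shares 41.8% of its 150-base reads with Gstp2 and a pseudogene, so its count is uncertain. Gstp2 itself passed in neither fit (-0.78 and 0.34). The omega-class genes Gsto1 and Gsto2 were lower as counted (-0.74 ± 0.21 and -0.83 ± 0.26, adjusted p = 0.0182 and 0.0264) and near 0 length-adjusted (0.15 and -0.031). The call of Gsto1 was lost without any one of WT replicates 1, 2 and 3 and TET2KO replicate 3 (log2 fold changes of -0.80 to -0.67) and that of Gsto2 without any one of WT replicates 1 and 3 and TET2KO replicates 1 and 3 (log2 fold changes of -0.82 to -0.72).

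Other genes with thioredoxin in their name do not all act on peroxide. Of 10 tested, 1 was higher and 6 lower as counted (all tested genes 33.4% and 29.4%), and 1 higher and 4 lower length-adjusted (21.9% and 24.3%). Txnl4a, a part of the spliceosome despite its name, held 87.1, 80.1 and 88.9 CPM in the WT libraries and 22.3, 47.2 and 28.8 CPM in the TET2KO ones. It fell 2.61-fold (-1.38 ± 0.27, adjusted p = 0.00653), and its length-adjusted value of -2.08 ± 0.36 was the largest fall among the 55 genes on that scale. The longest transcript of Txnl4a has 4078 nt, and among all tested genes of 1500 nt or more 4700 were higher and 2469 lower. With merged exons the value of Txnl4a was -1.73. In WT replicate 1 Txnl4a had 1815 reads at 61.9 TPM, and catalase, with 2613 nt by both lengths, 3254 reads at 92.8 TPM. The length behind the authors' TPM of Txnl4a was thus below 2613 nt, so the size of its length-adjusted values is uncertain. Exons of Txnl4a also overlap Gm16286 over 457 nt on the same strand.

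Txndc9, a partner of the cytosolic chaperonin, fell from 157 ± 17.9 to 62.8 ± 24.2 CPM (SD, n = 3; -1.33 ± 0.28, adjusted p = 0.00695; length-adjusted -0.77 ± 0.15, adjusted p = 0.00561). Txnl1, a thioredoxin bound to the proteasome and named here after its values were seen, fell from 209 ± 19.4 to 96.2 ± 33.4 CPM (-1.12 ± 0.26, adjusted p = 0.00880; length-adjusted -0.79 ± 0.16). Txndc12, of the endoplasmic reticulum, fell in both fits (-1.30 ± 0.25 and -0.36 ± 0.11, adjusted p = 0.00652 and 0.0310), but its adjusted call was lost without any one of WT replicates 1, 2 and 3 and TET2KO replicates 1 and 3 (log2 fold changes of -0.42 to -0.30). Txndc17, a cytosolic disulfide reductase, was lower as counted only (-1.37 ± 0.27; length-adjusted -0.19 ± 0.10).

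Txndc5, a disulfide isomerase of the endoplasmic reticulum known from cardiac fibroblasts, was the only gene of this role higher as counted. It held 27.5, 31.9 and 32.6 CPM in the WT libraries and 50.6, 36.1 and 49.7 CPM in the TET2KO ones (0.57 ± 0.18, adjusted p = 0.0276). The call was lost without any one of WT replicates 1, 2 and 3 and TET2KO replicates 1 and 3 (log2 fold changes of 0.48 to 0.60), and length-adjusted the value was 0.27 ± 0.13 (adjusted p = 0.110). Fibroblast markers summed to 2350 to 2464 CPM in WT and 2286 to 2793 CPM in TET2KO, which overlap, while 11 of the 19 were higher and 6 lower as counted (median log2 fold change 0.62), and 5 and 4 length-adjusted (median 0.17). Txnl4b and Txndc15, also named after their values were seen, were lower as counted only (-0.76 ± 0.21, lost without any one of WT replicates 1 and 3 and TET2KO replicate 3 (log2 fold changes of -0.73 to -0.61)) and higher length-adjusted only (0.37 ± 0.10, but -0.69 with merged exons). The adjusted call of Txndc15 was lost without any one of WT replicates 1, 2 and 3 and TET2KO replicate 3 (log2 fold changes of 0.33 to 0.38).

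**Figure D3:**
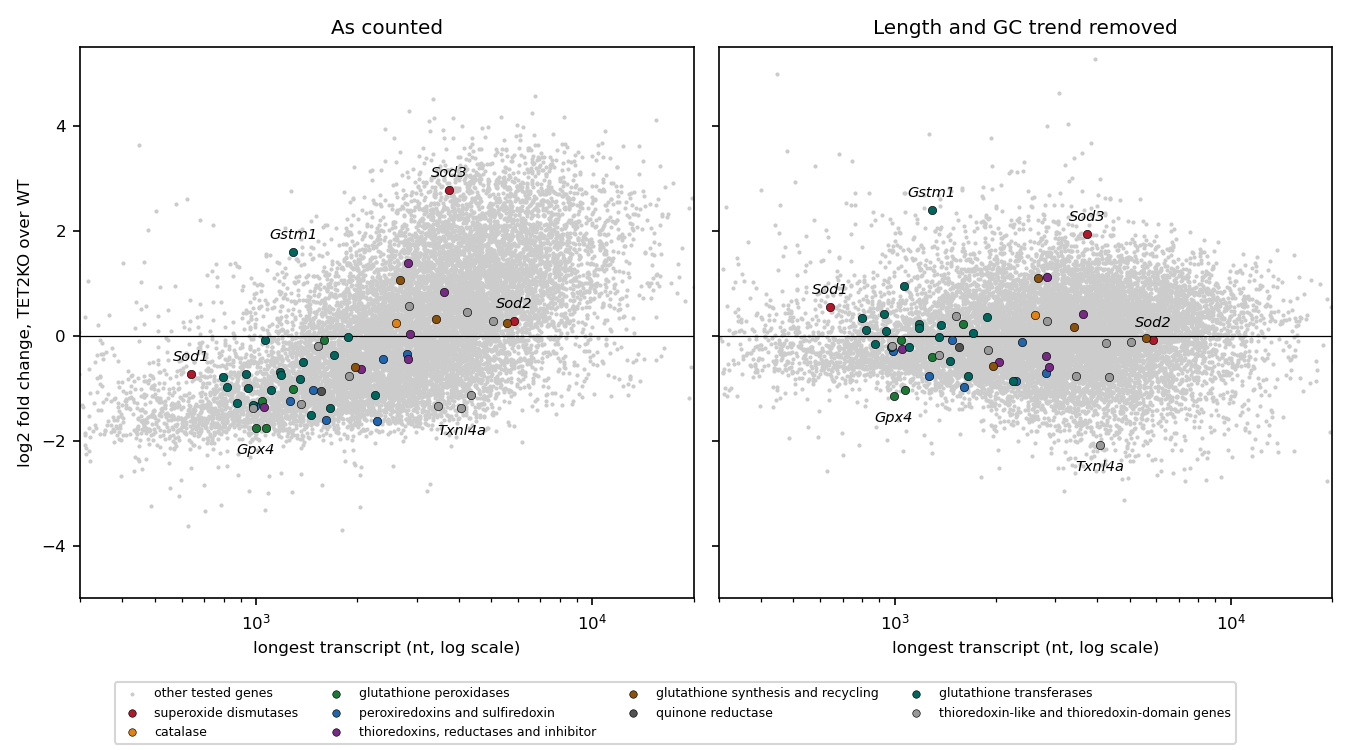
Log2 fold change of TET2KO over WT (vertical axis) against the length of the longest transcript in nt (horizontal log axis), as counted at left and with the length and GC trend removed at right. Grey points are the other tested genes and coloured points the 55 genes by role. At left the points climb from short to long transcripts, and at right they do not, while Gstm1, Sod3, Gpx4 and Txnl4a stay away from 0 in both.

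The fold changes of these genes followed transcript length. Over the 55 genes the Spearman rho between the log2 fold change and the longest transcript was 0.48 as counted and -0.10 length-adjusted, given as a description of points that share the same 6 libraries. Of the 25 genes under 1500 nt 1 was higher and 20 lower, with a median log2 fold change of -1.02, where of all 2563 tested genes of that length 98 were higher and 1751 lower, with a median of -1.10. Of the 30 longer genes 5 were higher and 11 lower, with a median of -0.28, where of all 11778 such genes 4700 were higher and 2469 lower, with a median of 0.32. Length-adjusted, 4 short members were higher and 4 lower (391 and 683 of all short genes), and 6 long members were higher and 11 lower (2750 and 2803 of all long genes). What produces the relation with length was not tested.

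Summed by role on the authors' TPM, both families of peroxidases were lower in TET2KO. The glutathione peroxidases came to 3182 ± 94.2 TPM in WT and 1619 ± 482 TPM in TET2KO, and the peroxiredoxins with sulfiredoxin to 2860 ± 51.6 and 1805 ± 413 TPM (SD, n = 3). The libraries of the groups did not overlap for either sum. The other genes with thioredoxin in their name were lower in sum as well, at 471 ± 1.26 and 353 ± 65.0 TPM, also without overlap. Taken singly on TPM, 4 of the 10 tested were higher and 5 lower. Superoxide dismutases came to 1167 ± 40.7 and 1287 ± 83.4 TPM and glutathione transferases to 1305 ± 30.1 and 1193 ± 101 TPM, and the groups overlapped for both. In CPM the dismutases came to 861 ± 74.8 and 824 ± 70.7 and overlapped. The transferases came to 1101 ± 89.8 and 671 ± 114 CPM and did not overlap. The 4 genes of glutathione synthesis and recycling came to 19.8 ± 0.962 and 38.4 ± 5.31 TPM, on a scale where the median of all genes is shifted by 0.41. In CPM these 4 came to 60.9 ± 3.53 and 67.2 ± 1.72 (SD, n = 3), and every TET2KO library was above every WT library on both scales. The authors' TPM follow the merged exon length for 80.6% of 4258 well-counted genes.

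**Figure D4:**
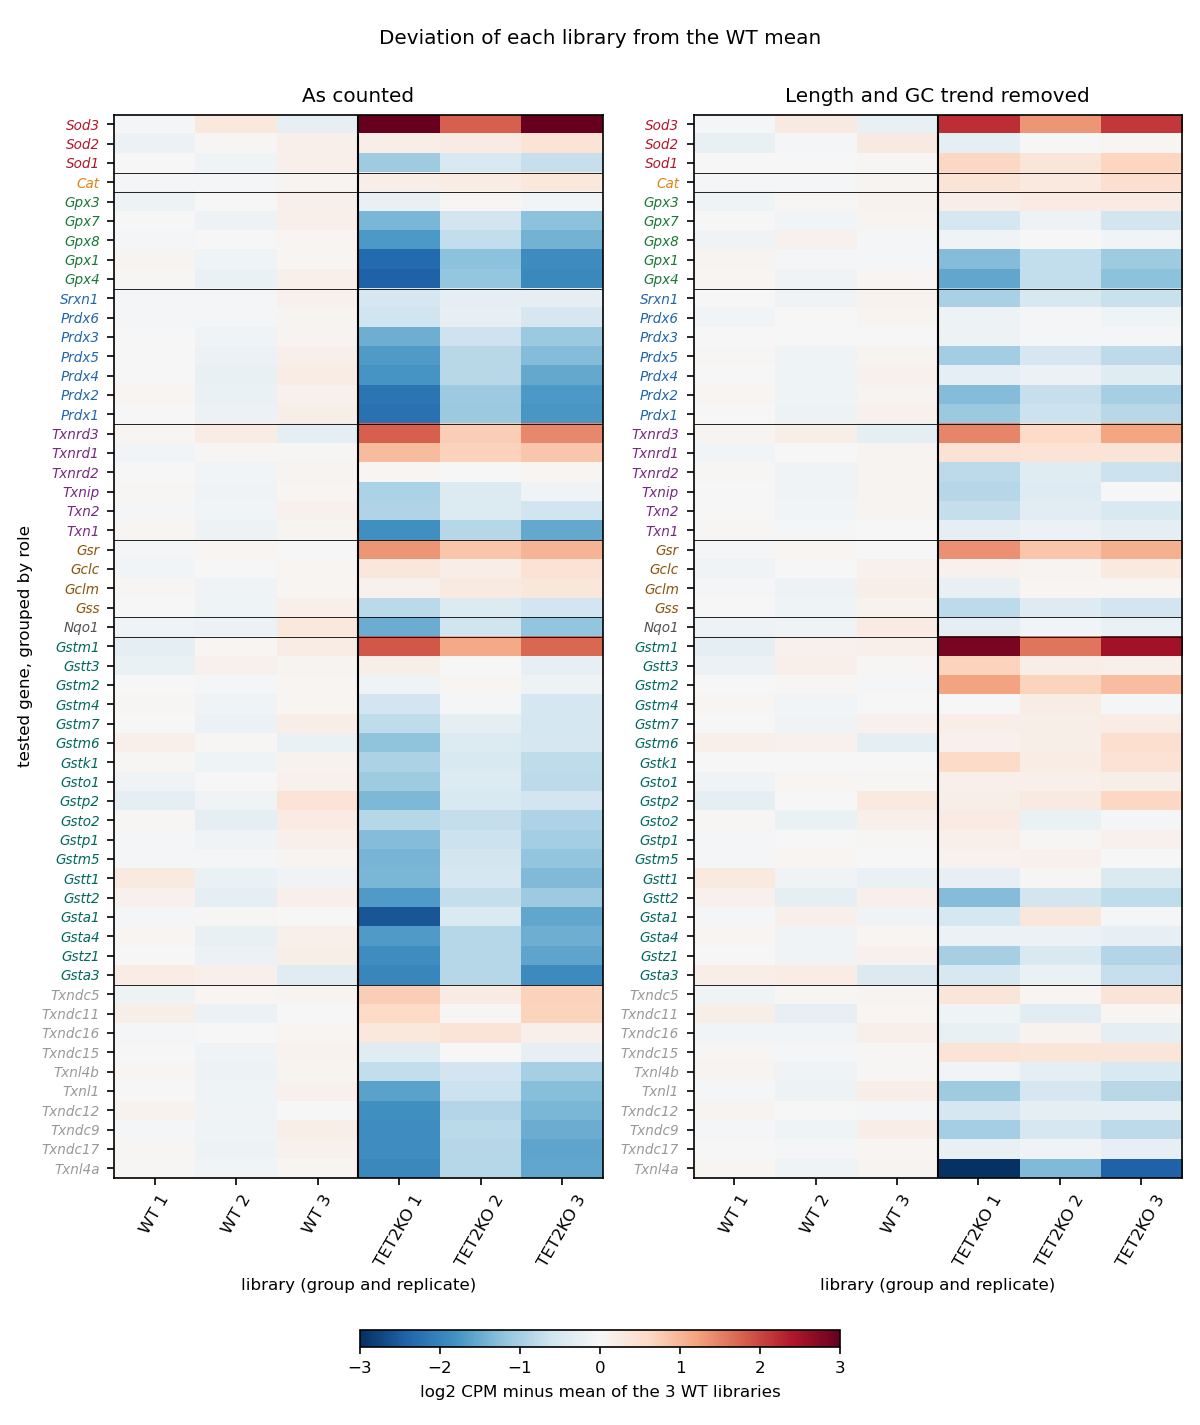
Deviation of each library from the mean of the 3 WT libraries (log2 CPM, colour, red above and blue below) for the 55 tested genes in rows, grouped by role, with 3 WT and 3 TET2KO libraries in columns. The left panel is as counted and the right panel has the length and GC trend removed. The TET2KO columns are mostly blue at left and paler at right, and TET2KO replicate 2 is the palest of them.

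The TET2KO libraries were not equally far from WT. Replicate 2 was the TET2KO library nearest to the WT mean for 50 of the 55 genes as counted and for 40 length-adjusted. Without it 8 members were higher and 37 lower as counted, among 11178 genes called, in place of 6 and 31 among 9037. Without TET2KO replicate 3 it was 5 and 20 among 6133, so the member counts moved with those of all genes. All 6 choices of a left-out library gave 5 to 8 higher and 20 to 37 lower. The 8 genes that did not pass as counted with all libraries but did without replicate 2 were Gclc and Txndc11 (higher) and Gsta1, Gstm4, Gstm6, Gstp2, Prdx6 and Srxn1 (lower). Length-adjusted, Txndc5 (0.35) and Txndc17 (-0.28) passed without replicate 2, Txnip without TET2KO replicate 3 (-0.60), Txndc17 also with the shortest principal transcript (-0.31) and Gclc with merged exons (0.48). In the authors' deposited table of significant genes, whose absolute log2 fold changes are at least 1.001, 4 of the 55 are listed as higher and 24 as lower, where 24.0% and 19.5% of the 14370 genes in their comparison table are.

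Genes of the same chemistry outside the name rule were compared for reference, from lists chosen with earlier results of these data known. As background for these lists and the cell type markers below, 33.4% of all tested genes were higher and 29.4% lower as counted. Length-adjusted, these shares were 21.9% and 24.3%. Of 33 tested glutathione and redox genes 8 were higher and 16 lower as counted, and 2 and 15 length-adjusted, with a median of -0.49 as counted. Hagh, the second glyoxalase, Chac2, which degrades glutathione, and Mgst3, a membrane-bound relative of the transferases, fell (-1.41 ± 0.24, -1.71 ± 0.31 and -1.59 ± 0.31, each adjusted p = 0.00652; length-adjusted -0.65, -0.72 and -0.63). Oplah, the oxoprolinase of the glutathione cycle, was higher as counted (1.03 ± 0.21, adjusted p = 0.00654) and lower length-adjusted (-0.68 ± 0.19, adjusted p = 0.0175). The adjusted call of Oplah was lost without any one of WT replicates 1 and 3 and TET2KO replicate 3 (log2 fold changes of -0.67 to -0.64).

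Of 25 tested NRF2 regulators and targets 9 were higher and 5 lower in each fit, but not the same genes: 4 were higher and 3 lower in both, and 1 passed in opposite directions. Nfe2l2, which encodes NRF2, held 36.5, 35.4 and 32.8 CPM in the WT libraries and 58.3, 43.1 and 51.8 CPM in the TET2KO ones and rose (0.55 ± 0.16, adjusted p = 0.0213; length-adjusted 0.93 ± 0.18, adjusted p = 0.00482). Its as-counted call was lost without any one of WT replicates 1, 2 and 3 and TET2KO replicate 3 (log2 fold changes of 0.50 to 0.58). Keap1, which marks NRF2 for degradation, was higher as counted (0.69 ± 0.16, adjusted p = 0.00887) and lower length-adjusted (-0.72 ± 0.21, adjusted p = 0.0223; 0.12 with the principal transcript), the latter call lost without any one of WT replicates 1 and 3 and TET2KO replicates 1 and 3 (log2 fold changes of -0.74 to -0.57). Hmox1, the inducible haem oxygenase, passed length-adjusted only (0.39 ± 0.22 as counted; 0.94 ± 0.21, adjusted p = 0.00849). Without TET2KO replicate 2 the as-counted value of Hmox1 was 0.53 and passed (adjusted p = 0.0174).

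Among the partners of NRF2, the related factor Nfe2l1 and the small MAF gene Mafg rose (1.76 ± 0.29 and 2.29 ± 0.38; length-adjusted 0.31 ± 0.10 and 0.66 ± 0.17), though the adjusted call of Nfe2l1 was lost without any one of WT replicates 1, 2 and 3 and TET2KO replicate 3 (log2 fold changes of 0.28 to 0.34) and that of Mafg without any one of WT replicates 1 and 2 and TET2KO replicate 3 (log2 fold changes of 0.57 to 0.61). Bach1, a repressor at the same element, was higher as counted only (1.17 ± 0.21; length-adjusted 0.31), but with merged exons its adjusted value of 0.89 passed. Rbx1, a subunit of the ubiquitin ligase that KEAP1 recruits, fell (-1.42 ± 0.28; length-adjusted -0.67 ± 0.13).

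NADPH supply had 5 higher and 4 lower of 19 tested as counted and 2 and 3 length-adjusted. Pgd, of the pentose phosphate pathway, rose from 14.4 to 25.2 CPM (0.80 ± 0.18; length-adjusted 0.74 ± 0.14), although with merged exons the value was -0.35. Mthfd1, of folate metabolism, rose as well (1.16 ± 0.29; length-adjusted 0.62 ± 0.20), an adjusted call lost without any one of WT replicates 1, 2 and 3 and TET2KO replicates 1 and 3 (log2 fold changes of 0.42 to 0.69). H6pd and Aldh1l2 were higher as counted only (2.25 and 1.11; length-adjusted 0.39 and 0.091), with H6pd past at 0.90 with merged exons, and the call of Aldh1l2 was lost without any one of WT replicates 2 and 3 (log2 fold changes of 1.00 to 1.06).

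Selenoproteins and selenocysteine insertion genes had 7 higher and 12 lower of 23 tested as counted, and 1 and 9 length-adjusted. Pstk and Trnau1ap, which serve the selenocysteine transfer RNA, fell (-1.81 ± 0.30 and -1.42 ± 0.27; length-adjusted -0.80 ± 0.13 and -0.61 ± 0.13). Selenoh and Selenom were lower as counted only (-1.29 and -0.98; length-adjusted -0.12 and -0.16), and with merged exons the adjusted value of Selenom was -0.81 and passed.

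Markers of the cell types in heart tissue moved too. Adult cardiomyocyte markers, all 20 of them found, summed to 121748 to 147948 CPM in WT and 83220 to 91336 CPM in TET2KO, with 10 higher and 9 lower as counted and 9 and 3 length-adjusted. Endothelial markers summed to 748 to 817 CPM in WT and 845 to 1489 CPM in TET2KO (14 higher and 5 lower of 22, length-adjusted 10 and 3), and macrophage and leukocyte markers to 740 to 877 and 329 to 489 CPM (3 higher and 7 lower of 17, length-adjusted 3 and 4). Adipocyte markers (5173 to 6354 and 5087 to 5606 CPM) and smooth muscle and pericyte markers (3550 to 3829 and 3691 to 3846 CPM) overlapped between the groups, with 1 higher and 1 lower of 7 (length-adjusted 1 and 0) and 8 higher and 3 lower of 14 (4 and 4). No matched marker had 0 reads in all libraries. The part of these cell types in the fall of the peroxidases or the rise of Sod3 was not tested.

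Of the 66 genes 11 had too few reads to test, at most 6 in any library. Gpx2, Gpx6 and Prdx2-rs3 had 0 reads in all 6 libraries. The others were Gpx5, Prdx6b, Gsta2, Gstm3, Gstp3, Gstt4, Txndc2 and Txndc8, for which no difference was detectable at this depth.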

How the data were processed

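RNA was measured in ventricular tissue of 3 WT and 3 TET2KO mice by poly(A) selection and paired reads of 150 nt, per the labels' protocols. Trimmomatic 0.36 and STAR 2.5.2b, featureCounts with Subread 1.5.2, DESeq2 and the build GRCm38 (mm10) are named in the submitters' processing notes. The sources used here give neither the annotation release nor the strand setting. Deposited by the authors were raw counts per gene and TPM values, a comparison table with log2 fold changes and p-values, and a normalised signal per library in that table, which is the counts over 1 size factor per library. Libraries were matched through the library names in the descriptions.

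The deposited counts were tested with edgeR 4.0.16 (R 4.3.3): quasi-likelihood F-test, robust fit, TMM factors, filterByExpr, group as the only term, Benjamini-Hochberg adjustment over all tested genes at 0.05. The SE was worked out as the absolute log2 fold change divided by the root of F. CPM use TMM factors (0.808 to 0.922 in WT, 1.12 to 1.22 in TET2KO). Length adjustment fitted a surface with mgcv 1.9.3 (6 basis functions per axis, prior count 2) on length and GC of the longest GENCODE M21 transcript for each library, used as offsets. Alternatives were other scalings and filters, DESeq2 1.42.0, limma 3.58.1 (voom, and log2(TPM + 1)), other lengths, a replicate block and each library left out. On simulated counts of 14207 genes with no trend the test found 18.4% of genes given a log2 change of 1 and 90.8% of those given 2, and called 10 unchanged genes. With the trend added (14144 genes) it called 6460 unchanged genes, and 10 after adjustment, which then recovered 64.6% and 98.0%. The added trend was the surface fitted to these data, so these runs cannot show whether the length used was right. The runs without the trend took the gene-wise spread of the as-counted fit and the others that of the adjusted fit, so their recoveries are not comparable.

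Within each group every pair of libraries differed beyond sampling noise (chi-square per degree of freedom 11.9 to 260). The rule for the members uses names only, but it and the gene lists were chosen with earlier results of these data known. Named were the members by role, the transferases, and of the other Txn genes up to 4 of the largest rises and falls, and up to 4 members of each pathway list with the smallest p, with Nfe2l2, Keap1, Hmox1 and Tet2. Reads of 150 bases shared between genes were found by comparing the longest transcript of each member with all annotated transcripts of other genes.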

Additional observations from a re-analysis of the deposited data

How the results depend on the processing

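A total of 13 genes kept their direction and passed in all 25 fits. Counts of members moved with the scaling: 6 higher became 13 with total library size, 16 on log2(TPM + 1) and 10 length-adjusted, and 31 lower became 16 on log2(TPM + 1) and 15 length-adjusted. Leaving out 1 library gave 5 to 8 higher and 20 to 37 lower as counted, and 6 to 11 higher and 12 to 20 lower length-adjusted. Over all genes it gave 6133 to 11178 calls as counted and 4025 to 8652 length-adjusted. Where an arm kept 2 libraries, the spread was pooled over both groups. Where at least 1 of the compared values passed its test, directions reversed length-adjusted for Gstk1 (0.42), Gstm2 (0.95), Gstm5 (0.087), Gstm7 (0.20), Gsto1 (0.15), Gstp1 (0.10), Sod1 (0.55), Txndc15 (0.37), Txnrd2 (-0.59), Oplah (-0.68) and Keap1 (-0.72), and on TPM for Gpx3 (0.55), Gss (0.029), Gstm2 (0.55), Gstm7 (0.12) and Txndc15 (0.42). Length-adjusted values reversed with merged exon length for Gstp1 (-0.38), Sod1 (-1.08), Txndc15 (-0.69) and Pgd (-0.35), and with the shortest principal transcript, a length added after seeing the data, for Gclm (1.36) and Keap1 (0.12). For Gstp1, Sod1 and Txndc15 the reads and the authors' TPM give a length nearer to the longest transcript than to the merged exons. Sign changes between values that both missed the threshold are not listed. The cause was not tested. Same-numbered libraries of the 2 groups did not deviate together (Pearson r 0.039, -0.23 and -0.013), so the numbers were not taken as pairs. With the replicate number as a block 5 members were higher and 26 lower as counted, among 7618 genes called, and 9 and 14 length-adjusted, among 5713. Depth limits the 11 untested genes and those near 1 CPM, such as Gsta1 and Gstm6.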
